A study of Mus musculus with 6 samples.

Results

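The comparison set residual mammary tissue that had stayed dormant for a long time (Long-term dormant, 1 library) beside residual tissue collected early after tumour regression (Dormant, 1 library). Its members were the cells of these 2 libraries in the single-cell count table of 4 tumour stages. Cells with fewer than 500 unique molecular identifiers (UMIs, one for each captured RNA molecule), with fewer than 200 genes or with more than 20% of their UMIs from mitochondrial genes were left out. After a fixed number of likely doublets had been removed, 8906 cells were used, of 24603 cells deposited for the 6 libraries of the series. Of the cells used, 5716 came from Long-term dormant tissue and 3190 from Dormant tissue.

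The study followed mouse mammary tumours through a primary, a dormant and a recurrent stage, with Primary and Recurrent libraries in the same table. Mice of the Long-term dormant library were 32 to 34 weeks old and carried the genotype label MMTV-Wnt1/iFGRR4. Mice of the Dormant library were 10 to 12 weeks old and carried the label MMTV-Wnt1/iFGRR1. The labels of all libraries end in different digits, and whether the genotypes differ in fact is not given. Both libraries have the strain label FVB (FVB.rGH-Luc-GFP) and the tissue label mammary gland. In both, the tumours were transplants whose inducible FGF receptor had been switched on with the B/B homodimerizer drug, and both groups then received NVP-BGJ398, an inhibitor of FGF receptors, by mouth for 14 days. Per the labels' protocols the drug was withdrawn for 14 days before residual tissue was taken; how much longer the Long-term dormant mice were left is not given. The MMTV promoter drives the Wnt1 transgene in mammary epithelium. The number of mice behind each library is not given, and age, time off the drug and library cannot be told apart, so no difference below has a replicate check and no p-value was computed.

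Residual disease after targeted therapy is a small epithelial population inside a stroma of fibroblasts, macrophages and lymphocytes. T cells and natural killer (NK) cells release interferon gamma, which raises MHC class I, the molecule that shows peptides to cytotoxic T cells, as well as defence GTPases and the chemokines Cxcl9 and Cxcl10 that draw further T cells. Fibroblasts build the collagen matrix of the gland, macrophages clear dying cells and lipid, and the mammary epithelium is made of a basal layer and of luminal cells, some of which sense progesterone and prolactin.

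The Long-term dormant cells used had a median of 3127 UMIs and 1165 genes, and the Dormant cells a median of 2698 UMIs and 919.5 genes; the 2 libraries shared 26 barcodes. Classes were named from marker lists, and in each library at least 5% of the cells of a class held each of the 12 of 12 fibroblast, 14 of 14 macrophage, 10 of 10 dendritic, 12 of 12 T and 8 of 9 NK markers. Markers of other cell types were also counted in every class, at levels that moved with the library. The summed level of 8 plasma cell markers in fibroblast-like cells was 277 UMIs per 1000000 UMIs of the class (CPM) in Long-term dormant tissue and 2147 CPM in Dormant tissue. The summed level of 12 fibroblast markers in T-like cells was 1339 CPM in Long-term dormant tissue and 126 CPM in Dormant tissue. A gene was therefore treated as a candidate for free RNA where, in the library that had more of it, some other class held it at a level exceeding 5 times that of the class compared, and the number of candidates is given beside the main lists. Ratios are log2 ratios of CPM, Long-term dormant over Dormant, so a negative value means less in Long-term dormant tissue; the numbers in brackets after a ratio bound its 95% counting interval and cover counting error only.

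The cell classes of the 2 libraries were nearly inverted: fibroblasts and myeloid cells made up most of Long-term dormant tissue, and lymphocytes most of Dormant tissue. Fibroblast-like cells were 48.8% of Long-term dormant cells (95% Clopper-Pearson interval 47.5% to 50.1%, 2788 cells) and 8.93% of Dormant cells (7.97% to 9.98%, 285 cells). Macrophage or monocyte-like cells were 22.0% (20.9% to 23.1%) in Long-term dormant tissue and 6.49% (5.66% to 7.40%) in Dormant tissue. Dendritic-like cells were 14.5% (13.6% to 15.5%) in Long-term dormant tissue and 4.86% (4.14% to 5.66%) in Dormant tissue. The lymphoid classes ran the other way. T-like cells were 4.18% (3.68% to 4.73%) of Long-term dormant cells and 38.6% (36.9% to 40.3%) of Dormant cells. NK-like cells were 3.52% (3.05% to 4.03%) in Long-term dormant tissue and 18.1% (16.8% to 19.5%) in Dormant tissue. Antibody-secreting plasma-like cells were nearly confined to 1 library, with 1 cell in Long-term dormant tissue (0.0175%) and 257 cells in Dormant tissue (8.06%, 7.14% to 9.06%). The Dormant share was 2.82% with a stricter cell filter (1000 UMIs, 500 genes and 10% mitochondrial UMIs) and 13.8% with none. Plasmacytoid dendritic-like cells differed less, at 2.66% in Long-term dormant tissue and 3.79% in Dormant tissue, and B-like cells were few, at 0.402% in Long-term dormant tissue and 0.752% in Dormant tissue.

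Shares of a library depend on each other, so the immune cells were also taken alone. Of 2715 immune cells in Long-term dormant tissue 46.3% were macrophage or monocyte-like, against 8.00% of 2586 immune cells in Dormant tissue. T-like cells were 8.80% of the immune cells of Long-term dormant tissue and 47.6% of those of Dormant tissue. The tilt from lymphoid to myeloid cells was thus also present without the fibroblasts in the denominator. Epithelial-like cells were 2.69% (2.29% to 3.15%, 154 cells) of Long-term dormant tissue and 8.78% (7.82% to 9.81%, 280 cells) of Dormant tissue. Luminal cells were 68.8% of the epithelial-like cells in Long-term dormant tissue and 43.9% in Dormant tissue, the rest being basal. A sort for live cells preceded the libraries, and shares of dissociated cells cannot be told apart from how well each type survived dissociation and freezing.

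**Figure D1:**
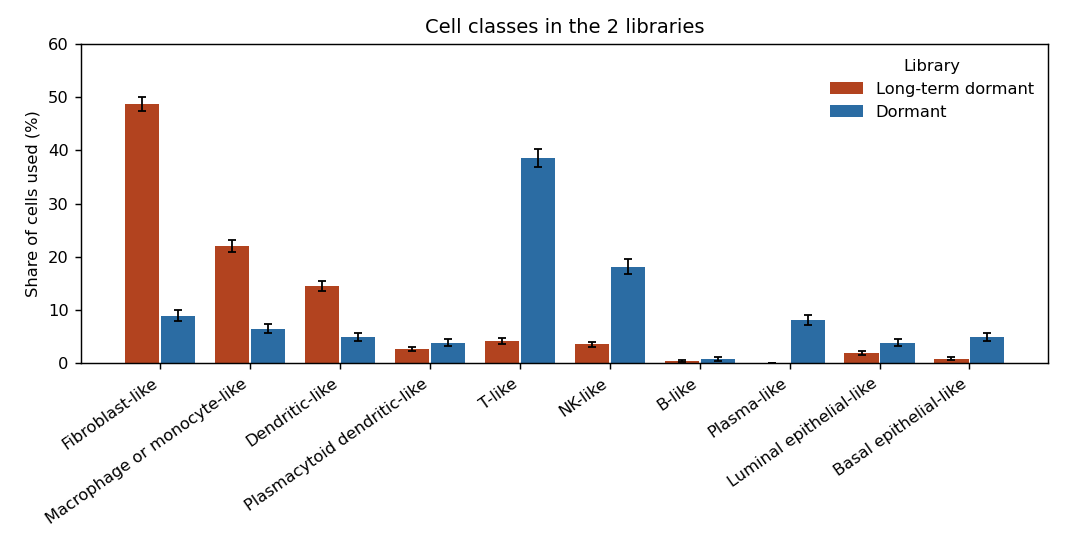
Share of the cells used (vertical axis, %) in each cell class (horizontal axis) for the Long-term dormant library (left bar of each pair) and the Dormant library (right bar), with 95% Clopper-Pearson intervals. Fibroblast-like cells reached 48.8% in the Long-term dormant library and 8.93% in the Dormant library, while T-like cells reached 4.18% in the Long-term dormant library and 38.6% in the Dormant library.

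Within the classes, targets of interferon were among the genes lowest in Long-term dormant tissue. In fibroblast-like cells 9 of 18 measured interferon-stimulated genes were more than 2-fold lower and 2 more than 2-fold higher, where measured means at least 50 UMIs over both libraries; their median log2 ratio was -1.08, against -0.04 for all genes measured. Of the 18, 1 was a free RNA candidate, and the median of the others was -1.22. Of all 9518 genes measured in fibroblast-like cells 7.08% were past 2-fold lower and 6.04% past 2-fold higher, so 46.0% of the genes past the fold were higher; with TMM scaling that share was 58.3%. The chemokine Cxcl10 was at 64.5 CPM in Long-term dormant fibroblast-like cells and at 704 CPM in Dormant ones, a log2 ratio of -3.45 [-3.59 to -3.31]. Cxcl9 (chr5:92321347-92328079, minus strand, GRCm38), a ligand of the same receptor, was at 18.3 CPM in Long-term dormant and 443 CPM in Dormant fibroblast-like cells, a log2 ratio of -4.59 [-4.83 to -4.36]. Both chemokines were thus among the genes with the lowest ratios of the class. Of the interferon-induced GTPases, which act against microbes inside cells, Igtp was at 15.8 CPM in Long-term dormant and 120.0 CPM in Dormant fibroblast-like cells, a log2 ratio of -2.92 [-3.23 to -2.61]. The GTPases Ifi47, Tgtp2 and Irgm1 had log2 ratios of -3.07, -4.11 and -2.32 in the same cells.

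Promoter sequences of 3 of these genes are shown because the letters GAAA, any 2 bases and GAAA again, the core of the interferon-stimulated response element, lie in them. The sequences are RefSeq's (GRCm38.p6), run 5′ to 3′ on the gene's own strand from 250 bases before the annotated start to 50 bases after it, and have the motif in capitals. Cxcl10 (chr5:92348840-92349139, minus strand) has 1 match, 213 bases before the start. Igtp (chr11:58199306-58199605, plus strand) has 1 match, 34 bases before the start. Irgm1 (chr11:48871371-48871670, minus strand) has 2 overlapping matches, the first 30 bases before the start.
Cxcl10 promoter: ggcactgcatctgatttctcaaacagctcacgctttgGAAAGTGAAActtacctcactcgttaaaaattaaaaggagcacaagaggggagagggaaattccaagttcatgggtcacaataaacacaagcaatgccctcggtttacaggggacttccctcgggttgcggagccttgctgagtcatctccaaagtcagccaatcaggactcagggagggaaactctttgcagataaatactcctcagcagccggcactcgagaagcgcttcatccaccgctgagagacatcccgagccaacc
Igtp promoter: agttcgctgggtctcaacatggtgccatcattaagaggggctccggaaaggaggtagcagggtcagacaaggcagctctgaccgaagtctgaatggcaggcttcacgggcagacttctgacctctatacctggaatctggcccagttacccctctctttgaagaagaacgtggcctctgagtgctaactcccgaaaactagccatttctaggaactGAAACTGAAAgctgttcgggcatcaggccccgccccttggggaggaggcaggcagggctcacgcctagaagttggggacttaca
Irgm1 promoter: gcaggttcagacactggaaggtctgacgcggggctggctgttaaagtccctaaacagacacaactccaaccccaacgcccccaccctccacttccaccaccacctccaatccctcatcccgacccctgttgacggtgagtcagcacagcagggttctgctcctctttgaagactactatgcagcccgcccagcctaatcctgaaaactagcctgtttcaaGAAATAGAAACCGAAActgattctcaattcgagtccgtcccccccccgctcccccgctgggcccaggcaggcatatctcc

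With both strands searched and a promoter with several matches counted once, the motif was present in 11 of the 15 interferon-stimulated genes that had a promoter in the table (73.3%, of 20 on the list) and in 1079 of all 27025 promoters of that length (3.99%). A match describes letters, not binding. The 20 genes had been listed as interferon targets, so the share describes the list rather than the libraries.

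MHC class I genes were lower with the interferon targets. In fibroblast-like cells 10 of 11 measured genes of MHC class I and peptide loading were more than 2-fold lower in Long-term dormant tissue and 0 higher, with a median log2 ratio of -1.68, and 0 of the 11 were free RNA candidates. The heavy chain gene H2-D1 was at 863 CPM in Long-term dormant and 5017 CPM in Dormant fibroblast-like cells, a log2 ratio of -2.54 [-2.58 to -2.50]. B2m, the light chain of the complex, was at 2459 CPM in Long-term dormant and 7901 CPM in Dormant cells, a log2 ratio of -1.68 [-1.72 to -1.65]. Psmb9, a subunit of the immunoproteasome that cuts peptides for display, was at 41.2 CPM in Long-term dormant and 175 CPM in Dormant cells. All of these genes are induced by interferon gamma in textbook accounts.

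The size of this difference was not the same in all fibroblast-like clusters. The 3 fibroblast-like clusters were cluster 11, led by Crabp1 and Postn (458 Long-term dormant and 122 Dormant cells), cluster 2, led by Cilp and Smoc2 (1423 Long-term dormant and 72 Dormant cells), and cluster 6, led by Pi16 and Sema3c, markers of fibroblasts around vessels (907 Long-term dormant and 91 Dormant cells). In cluster 11 the median log2 ratio was -2.81 for 12 measured interferon-stimulated genes and -2.75 for 10 MHC class I genes. In cluster 2 the medians were -0.72 and -1.17 for the same lists, and in cluster 6 they were 0.28 and -0.40, with 1 of 14 interferon-stimulated genes past 2-fold lower. Of all genes measured in each cluster, 9.58% of 5009 were past 2-fold lower and 11.9% higher in cluster 11, 7.21% of 7476 lower and 8.68% higher in cluster 2, and 3.08% of 6394 lower and 6.32% higher in cluster 6. Cxcl10 was at 58.8 CPM in Long-term dormant and 1427 CPM in Dormant cells of cluster 11, a log2 ratio of -4.59 [-4.91 to -4.31]. In cluster 6 Cxcl10 was at 52.5 CPM in Long-term dormant and 31.5 CPM in Dormant cells, a log2 ratio of 0.69 [-0.04 to 1.64]. H2-K1, another MHC class I heavy chain, had log2 ratios of -2.91 [-3.02 to -2.80] in cluster 11, -1.13 [-1.24 to -1.01] in cluster 2 and -0.01 [-0.16 to 0.15] in cluster 6. The counting intervals of the 3 clusters did not overlap for H2-K1. With 1 library a side the difference between clusters was not tested. Nor was it tested whether the cells of a cluster were the same kind of fibroblast in both libraries.

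**Figure D2:**
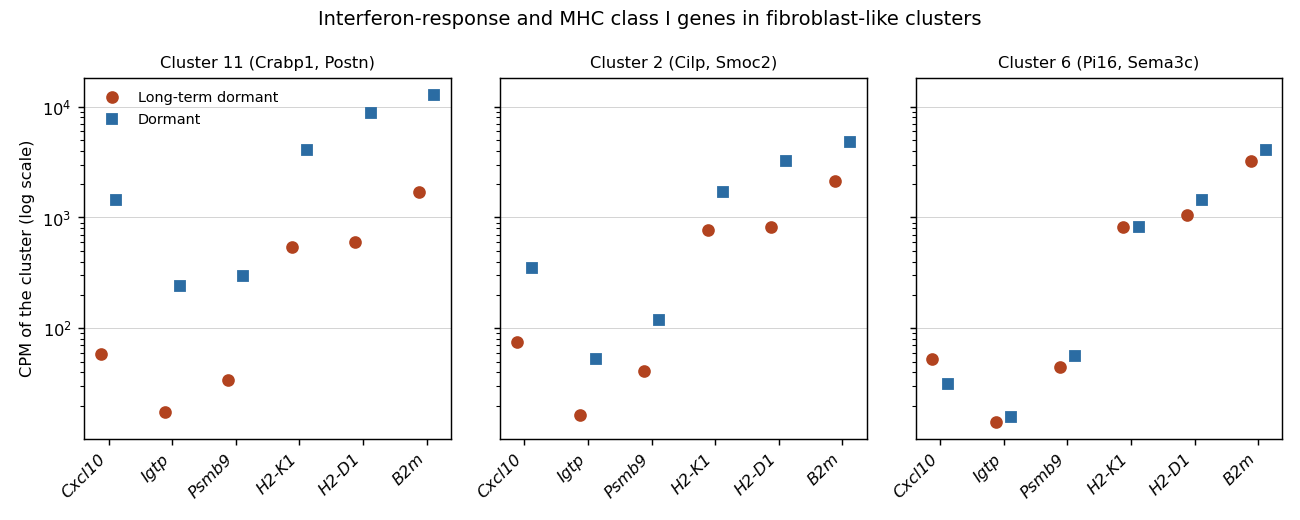
Level of 3 interferon-response and 3 MHC class I genes (vertical axis, CPM of the cluster, log scale) in the 3 fibroblast-like clusters, with Long-term dormant as circles left of Dormant as squares. The squares lie above the circles for all 6 genes in clusters 11 and 2, and the symbols lie close together in cluster 6, where Cxcl10 was at 52.5 CPM in Long-term dormant and 31.5 CPM in Dormant cells.

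Epithelial-like cells had the same direction. There 8 of 10 measured interferon-stimulated genes and 8 of 11 MHC class I genes were more than 2-fold lower in Long-term dormant tissue, with medians of -1.73 and -1.75, while 9.74% of all 5616 genes measured were past 2-fold lower and 4.34% higher. Free RNA candidates were 2 of the 10 interferon-stimulated genes and 0 of the 11 MHC class I genes. The share of higher genes among those past the fold was 30.9%, and 40.3% when mitochondrial, ribosomal and haemoglobin genes were left out of the scaling. H2-D1 was at 933 CPM in Long-term dormant and 4151 CPM in Dormant epithelial-like cells, a log2 ratio of -2.15 [-2.27 to -2.04]. Within basal cluster 20 (47 Long-term dormant and 147 Dormant cells) 7 of 8 measured interferon-stimulated genes were past 2-fold lower, where 14.6% of 2460 genes were lower and 6.79% higher, with Igtp at 14.0 CPM in Long-term dormant and 258 CPM in Dormant cells.

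In macrophage or monocyte-like cells 7 of 14 interferon-stimulated genes were past 2-fold lower, with a median of -0.90 (-0.61 without 3 free RNA candidates), and 5 of 10 MHC class I genes were, 0 of the 10 being candidates. Among all 6854 genes measured there, 5.25% were past 2-fold lower and 10.3% higher, the median log2 ratio was 0.18, and 66.2% of the genes past the fold were higher (55.2% with TMM scaling). Cxcl9 was at 8.60 CPM in Long-term dormant and 483 CPM in Dormant macrophage or monocyte-like cells, a log2 ratio of -5.79 [-6.31 to -5.34]. Dendritic-like cells had 4 of 8 interferon-stimulated genes past 2-fold lower and 2 higher, a median of -0.95 (-0.68 without 3 free RNA candidates), where 5.72% of 5773 genes were lower and 5.91% higher; Cxcl9 was at 6.17 CPM in Long-term dormant and 111 CPM in Dormant dendritic-like cells. Fibroblast-like, macrophage-like and dendritic-like cells thus all had less Cxcl9 in Long-term dormant tissue. MHC class I differed less in dendritic-like cells, where 1 of 12 measured genes was past 2-fold lower and 0 higher, a median of -0.52.

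In the lymphocytes the direction of these lists depended on the scaling and on the free RNA candidates. In T-like cells the median log2 ratio was 0.06 for 8 measured interferon-stimulated genes, of which 1 was past 2-fold lower, 2 were higher and 3 were free RNA candidates, and 0.06 for 11 MHC class I genes, of which 0 were past the fold. Among the 5417 genes measured in T-like cells 6.22% were past 2-fold lower and 8.57% higher, so 57.9% of the genes past the fold were higher, against 25.7% with TMM scaling. In NK-like cells 0 of 10 MHC class I genes were past the fold and 2 of 5 interferon-stimulated genes were higher, both of them free RNA candidates. Of 3839 genes measured in NK-like cells 10.2% were past 2-fold lower and 6.3% higher, which made 38.3% of the genes past the fold higher, against 23.3% with TMM scaling. The NK-like medians were 0.52 for interferon-stimulated genes, or -0.57 without the 2 candidates, and 0.13 for MHC class I. With TMM scaling the medians of both lists in T-like cells were -0.23 and that of MHC class I in NK-like cells was -0.03, so no direction is given for these lists.

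**Figure D3:**
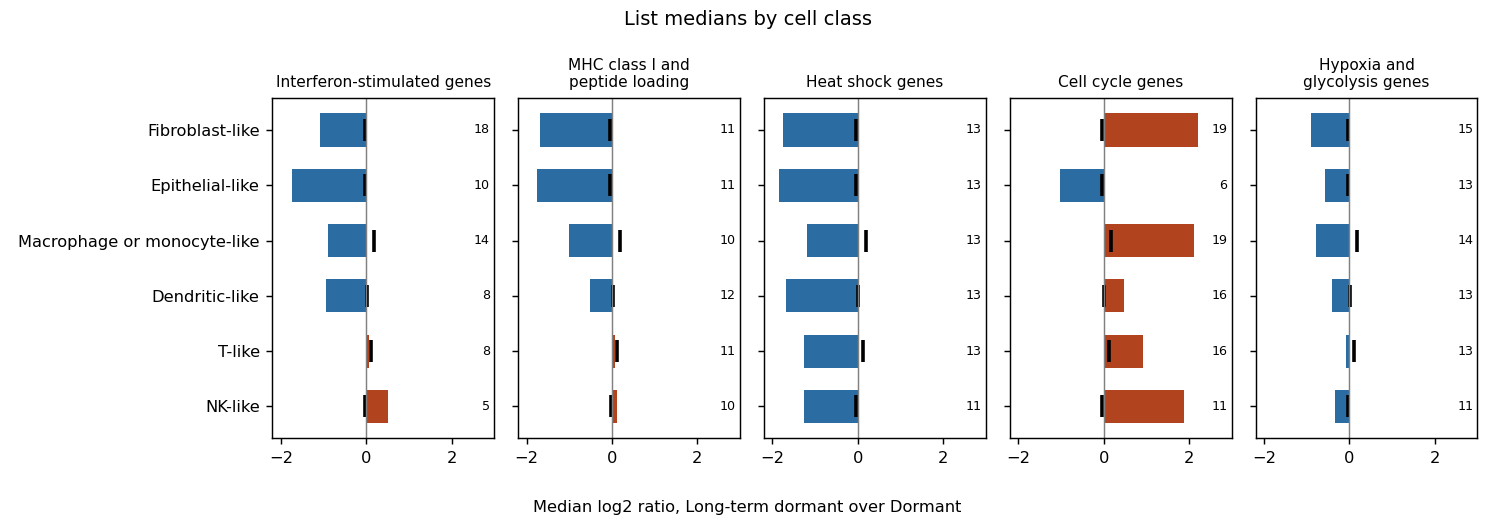
Median log2 ratio of 5 gene lists (horizontal axis, Long-term dormant over Dormant) in 6 cell classes (rows). Bars are list medians, black ticks the median of all genes measured in the class, and the number at the right of each row counts the list's measured members. Interferon-stimulated and MHC class I bars reach below 0 in fibroblast-like, epithelial-like, macrophage or monocyte-like and dendritic-like cells, and heat shock bars do in all 6 classes.

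Transcripts of interferon gamma itself were scarcer in Long-term dormant tissue. Ifng was at 1.84 CPM of the whole Long-term dormant library (38 UMIs) and at 37.7 CPM of the whole Dormant library (495 UMIs). T-like and NK-like cells held 81.6% of the Ifng UMIs of Long-term dormant tissue and 89.1% of those of Dormant tissue. Primary and Recurrent tumours had 1.66 and 0.702 CPM, so among the 4 stages Dormant tissue had the most. Fewer cells of a type and less RNA per cell both enter a level taken over a whole library. Within NK-like cells Ifng was at 45.1 CPM in Long-term dormant and 62.9 CPM in Dormant tissue, a log2 ratio of -0.45 [-1.29 to 0.25] whose interval holds 0. Within T-like cells it had 13 UMIs in Long-term dormant and 342 UMIs in Dormant tissue, a log2 ratio of -1.62 [-2.60 to -0.88], and with equal weight for each cluster held by both libraries that ratio turned to 0.79. Ifng is a leading gene of T-like cluster 10.2, which held 3 Long-term dormant and 89 Dormant cells. Inside T-like cluster 5 it was at 45.1 CPM in Long-term dormant and 26.8 CPM in Dormant cells, a log2 ratio of 0.79 [-0.25 to 1.65].

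Fibroblast-like cells of Long-term dormant tissue carried more collagen RNA. Of 15 measured fibrillar and basement membrane collagen genes 7 were more than 2-fold higher and 0 lower, with a median log2 ratio of 0.97, and 14 of the 15 were not free RNA candidates. Col1a1 and Col1a2 encode the chains of type I collagen, the main fibre of connective tissue. Col1a1 was at 6785 CPM in Long-term dormant and 3103 CPM in Dormant fibroblast-like cells, a log2 ratio of 1.13 [1.09 to 1.17]. Col1a2 was at 10026 CPM in Long-term dormant and 3858 CPM in Dormant cells, a log2 ratio of 1.38 [1.34 to 1.42]. Col6a3, a chain of the microfibril collagen VI, and Col5a1, a chain that sets fibre width, had the highest ratios of the list, 1.91 [1.79 to 2.04] and 1.60 [1.43 to 1.78].

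The collagen difference was largest where the interferon difference was. In cluster 11 the median log2 ratio of 14 measured collagens was 1.83, with 11 past 2-fold higher. In cluster 2 it was 1.05 with 8 of 15 past the fold, and in cluster 6 it was 0.23 with 1 of 14. Col1a1 was at 14466 CPM in Long-term dormant and 2688 CPM in Dormant cells of cluster 11, a log2 ratio of 2.43 [2.36 to 2.50]. In cluster 6 Col1a1 was at 1742 CPM in Long-term dormant and 1769 CPM in Dormant cells, a log2 ratio of -0.02 [-0.13 to 0.09]. Cluster 6 thus differed little in either list, and cluster 11 differed most in both. Col15a1 and Col18a1 are leading genes of cluster 11 and Col6a3 of cluster 2, so their levels entered the clustering.

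Among matrix glycoproteins and proteoglycans 4 of 17 were more than 2-fold higher and 1 lower over the whole class, with a median of 0.46. Inside cluster 11, 10 of 16 were past 2-fold higher and 0 lower, a median of 1.71. Inside cluster 2, 4 of 17 were higher and 1 lower, a median of 0.39. Inside cluster 6, 1 of 16 was higher and 0 lower, a median of 0.02. Postn, periostin, a matrix protein of remodelling tissue and a leading gene of cluster 11, was at 1195 CPM in Long-term dormant and 465 CPM in Dormant fibroblast-like cells, a log2 ratio of 1.36 [1.25 to 1.47]. Thbs2 (thrombospondin) and Eln (elastin) had log2 ratios of 1.36 [1.17 to 1.57] and 1.10 [0.92 to 1.28]. Tnc, tenascin C, went the other way with -3.40 [-3.74 to -3.08], but 59.9% of its UMIs in Dormant fibroblast-like cells came from 1 cell, and the ratio without that cell was -2.09. None of the 10 genes for collagen crosslinking and folding was past 2-fold in either direction over the whole class, with a median of -0.03. The crosslinking enzyme Lox was at 200.4 CPM in Long-term dormant and 200.2 CPM in Dormant fibroblast-like cells. Inside cluster 11, 3 of the 10 crosslinking and folding genes were past 2-fold higher and 0 lower, a median of 0.77. Inside cluster 2, 0 were higher and 1 lower, and inside cluster 6, 1 was higher and 0 lower. Over the whole class 0 of the 10 adventitial-type fibroblast genes were past the fold, with a median of 0.14. Inside cluster 11, however, 9 of the 10 were past 2-fold higher, with a median of 2.72, against 1 of 10 in cluster 2 and 0 of 10 in cluster 6.

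**Figure D4:**
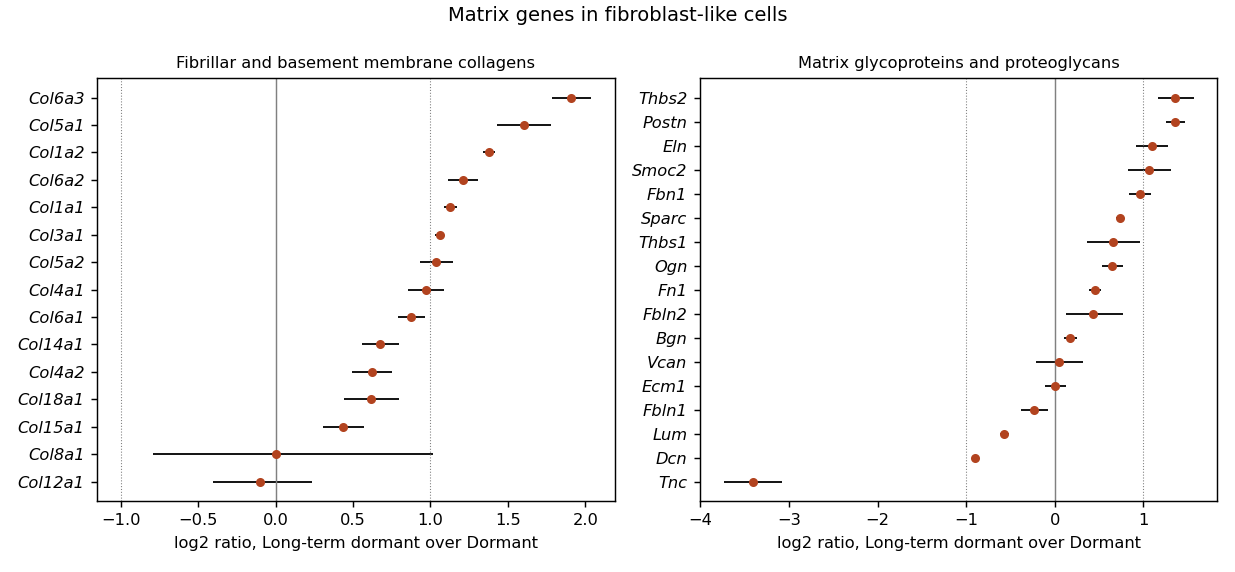
Log2 ratio, Long-term dormant over Dormant (horizontal axis), of 15 collagen genes (left panel) and 17 matrix glycoprotein and proteoglycan genes (right panel) in fibroblast-like cells, with 95% counting intervals as lines and 2-fold marked by dotted lines. Col6a3 leads the left panel at 1.91, and Tnc lies at -3.40 in the right panel.

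Of the activated fibroblast genes 3 of 10 were past 2-fold higher and 3 lower, 2 of the 10 being free RNA candidates. Inside cluster 11 all 5 measured were past 2-fold higher, a median of 3.08, and inside cluster 2 there were 2 of 10 higher and 4 lower. The higher ones included Lrrc15, a surface protein of matrix-making fibroblasts and a leading gene of cluster 11, at 31.1 CPM in Long-term dormant and 6.63 CPM in Dormant cells, a log2 ratio of 2.16 [1.33 to 3.30]. The lower ones were Tnc, Inhba and Spp1, and 1 cell gave 59.3% of the Dormant UMIs of Inhba and 89% of those of Spp1. Among genes with a mean of at least 50 CPM, an interval wholly past 2-fold and no place among cluster leaders, the highest ratio was that of S100a4 (chr3:90603771-90606045, plus strand, GRCm38), a calcium-binding protein also called fibroblast-specific protein; it was at 679 CPM in Long-term dormant and 133 CPM in Dormant cells, a log2 ratio of 2.35 [2.15 to 2.57]. It was followed by Nrep, at 2.25 [1.88 to 2.67], and by Ccn5, a matricellular protein, at 1.79 [1.52 to 2.08]. Pxdn, a peroxidase that crosslinks collagen IV, had a log2 ratio of 1.66 [1.31 to 2.05], and Adam12, a surface metalloproteinase, 1.54 [1.11 to 2.05]. At the other end stood Pla2g7, a secreted phospholipase, at 4.38 CPM in Long-term dormant and 229 CPM in Dormant cells, a log2 ratio of -5.69 [-6.18 to -5.26]. Tnfrsf21, a death receptor, had a log2 ratio of -3.55 [-3.90 to -3.21]. Serpinb2 had -5.55, with 38.1% of its Dormant UMIs in 1 cell and a ratio of -4.86 without it.

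Secreted signals of the fibroblasts were split. Of 15 measured chemokines and cytokines 3 were past 2-fold higher and 3 lower. The monocyte attractants Ccl8 and Ccl7 were at 546 and 541 CPM in Long-term dormant fibroblast-like cells, against 233 and 233 CPM in Dormant ones. Il6, a cytokine of inflammation, had a log2 ratio of 1.10 [0.84 to 1.37]. Lower were Cxcl14, at 248 CPM in Long-term dormant and 1059 CPM in Dormant cells, and the eosinophil attractant Ccl11, with a log2 ratio of -1.42 [-1.54 to -1.30]. The third lower one, Ccl19, rested on 1 cell, which held 65.4% of its Dormant UMIs. The clusters differed in this list. Inside cluster 11, 1 of 10 measured chemokines and cytokines was past 2-fold higher and 3 were lower, a median of 0.11. Inside cluster 2, 0 of 15 were higher and 5 lower, a median of -0.55. Inside cluster 6, 4 of 13 were higher and 0 lower, a median of 0.72. Of 11 complement genes, 3 of them free RNA candidates, 3 were past 2-fold lower and 1 higher. Inside cluster 11 the count was 6 of 7 lower (median -1.67) and inside cluster 2 it was 4 of 8 (median -1.05), with 0 higher in either, while in cluster 6 it was 0 of 8.

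Metalloproteinases and their inhibitors had 3 of 13 members past 2-fold higher and 1 lower, with a median of 0.38. Timp3, an inhibitor that binds matrix, was at 528 CPM in Long-term dormant and 192 CPM in Dormant fibroblast-like cells. Timp1 was lower, at -2.01, or -1.15 without the 1 cell that held 45.2% of its Dormant UMIs. Growth factors of the mammary stroma differed little, with 0 of 10 past the fold. Of 13 TGF-beta and BMP signal genes 1 was past 2-fold higher and 1 lower, and of 10 Wnt pathway genes 2 were lower. Sfrp1, a secreted inhibitor of Wnt, was at 91.4 CPM in Long-term dormant and 450.0 CPM in Dormant cells, a log2 ratio of -2.30 [-2.44 to -2.16]. Of 9 FGF receptor and MAPK feedback genes 2 were past 2-fold lower, Dusp6 and Dusp5, both free RNA candidates, and the receptor Fgfr1 had a log2 ratio of 0.33 [0.12 to 0.56].

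Hypoxia and glycolysis genes had 13 of 15 ratios below 0 in fibroblast-like cells, with 6 of the 15 past 2-fold lower, 1 higher and a median of -0.90. The glucose transporter Slc2a1 and the lactate enzyme Ldha had log2 ratios of -1.75 [-2.32 to -1.13] and -1.46 [-1.58 to -1.33], and Hk2, which traps glucose in the cell, was the exception at 1.49 [1.29 to 1.71]. In cluster 2 the median of the list was -1.59, with 11 of 15 past 2-fold lower, and in cluster 6 it was -0.31 with 0 lower. Adipocyte and lipid uptake genes had 3 of 7 past 2-fold higher and 1 lower, among them Fabp4, a fatty acid carrier, at 132 CPM in Long-term dormant and 49.0 CPM in Dormant cells. Genes of cholesterol and fatty acid synthesis had 4 of 16 past 2-fold higher and 1 lower, with few UMIs in Dormant tissue for the higher ones.

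Macrophage or monocyte-like cells of Long-term dormant tissue had more RNA of Gpnmb, Ctsk and Lpl and less of complement C1q. The class was carried by cluster 4, led by Retnla and Pf4 (1086 Long-term dormant and 153 Dormant cells), with cluster 21, led by proliferation genes (163 Long-term dormant and 3 Dormant cells), and cluster 8, led by Mmp12 and C1qa (4 Long-term dormant and 46 Dormant cells). Gpnmb (chr6:49036546-49070929, plus strand, GRCm38), a glycoprotein of lipid-loaded macrophages, was at 242 CPM in Long-term dormant and 16.2 CPM in Dormant macrophage or monocyte-like cells, a log2 ratio of 3.86 [3.20 to 4.71]. Ctsk, a protease that degrades collagen, was at 224 CPM in Long-term dormant and 18.2 CPM in Dormant cells, a log2 ratio of 3.58 [2.95 to 4.38]. Within cluster 4 alone the log2 ratios of Gpnmb and Ctsk were 3.85 [3.12 to 4.82] and 3.04 [2.40 to 3.87], so both were higher inside the shared cluster as well. Mmp9, which cleaves basement membrane and also marks neutrophils, was at 60.2 CPM in Long-term dormant and 1.01 CPM in Dormant cells, from 280 UMIs in Long-term dormant and 1 UMI in Dormant cells, a log2 ratio of 5.31 [3.40 to 11.20].

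Lipid-associated macrophage genes had 4 of 14 members past 2-fold higher, 3 lower and a median of 0.66. Fabp4 was at 109.8 CPM in Long-term dormant and 14.2 CPM in Dormant cells, and Lpl, the enzyme that frees fatty acids from lipoproteins, at 958 CPM in Long-term dormant and 257 CPM in Dormant cells. The scavenger receptor Cd36, a leading gene of cluster 4, had a log2 ratio of 1.69 [1.47 to 1.92]. Members of the same list also ran the other way. Apoe, a lipid carrier and a leading gene of cluster 8, was at 3102 CPM in Long-term dormant and 10774 CPM in Dormant cells, and within cluster 4 had a log2 ratio of -0.84 [-0.89 to -0.79]. Spp1, osteopontin, was at -1.96, with 33.8% of its Dormant UMIs in 1 cell.

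The complement genes C1qa, C1qb and C1qc, which tag dying cells for uptake, lead cluster 8 and were therefore compared inside cluster 4. C1qa was at 256 CPM in Long-term dormant and 571 CPM in Dormant cells of cluster 4, a log2 ratio of -1.16 [-1.34 to -0.97]; C1qb and C1qc had -1.39 [-1.57 to -1.21] and -1.25 [-1.47 to -1.03]. Over the whole class the level of C1qa was 240.5 CPM in Long-term dormant and 1862 CPM in Dormant tissue, and 5822 CPM in Primary and 5261 CPM in Recurrent tumours, so Long-term dormant tissue had the lowest level of the 4 stages. The C1q genes also lead cluster 3, with 592 Primary, 850 Recurrent, 2 Long-term dormant and 5 Dormant cells. Cluster 8 held 531 Primary and 219 Recurrent cells. This order of stages therefore cannot be told apart from the mix of clusters. Of 8 measured MHC class II genes 3 were past 2-fold lower over the class, with a median of -0.86. Inside cluster 4 there were 0 of 7 MHC class II and 1 of 10 MHC class I genes past 2-fold lower, but 6 of 12 interferon-stimulated genes, where 5.3% of 5929 genes were lower and 7.66% higher. H2-Ab1 was at 3936 CPM in Long-term dormant and 11545 CPM in Dormant macrophage or monocyte-like cells, a log2 ratio of -1.55 [-1.59 to -1.52], and of -0.98 [-1.04 to -0.93] within cluster 4.

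Inflammatory myeloid genes had 6 of 12 members past 2-fold lower, 2 higher and a median of -0.95. The chemokine Ccl4 was at 116 CPM in Long-term dormant and 679.8 CPM in Dormant macrophage or monocyte-like cells, a log2 ratio of -2.54 [-2.71 to -2.38]. The neutrophil attractant Cxcl1 was higher, at 680.5 CPM in Long-term dormant and 198 CPM in Dormant cells, a log2 ratio of 1.78 [1.57 to 1.99]. Resident-like macrophage genes had 1 of 9 members past 2-fold higher, a free RNA candidate, and 0 lower. Of 8 monocyte genes 2 were past 2-fold lower, Hp at -2.43 [-2.86 to -2.01] and Itgal at -2.15 [-2.66 to -1.63]. The lowest ratios of the class outside cluster leaders were those of Dnase1l3, a secreted nuclease, at 1.93 CPM in Long-term dormant and 164 CPM in Dormant cells, and of Ly6i, at 4.94 CPM in Long-term dormant and 113 CPM in Dormant cells. Markers of fibroblasts summed to 1138 CPM in Long-term dormant and 268 CPM in Dormant macrophage or monocyte-like cells, and T cell markers to 46.4 CPM in Long-term dormant and 240 CPM in Dormant ones; their part in these ratios was not tested.

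**Figure D5:**
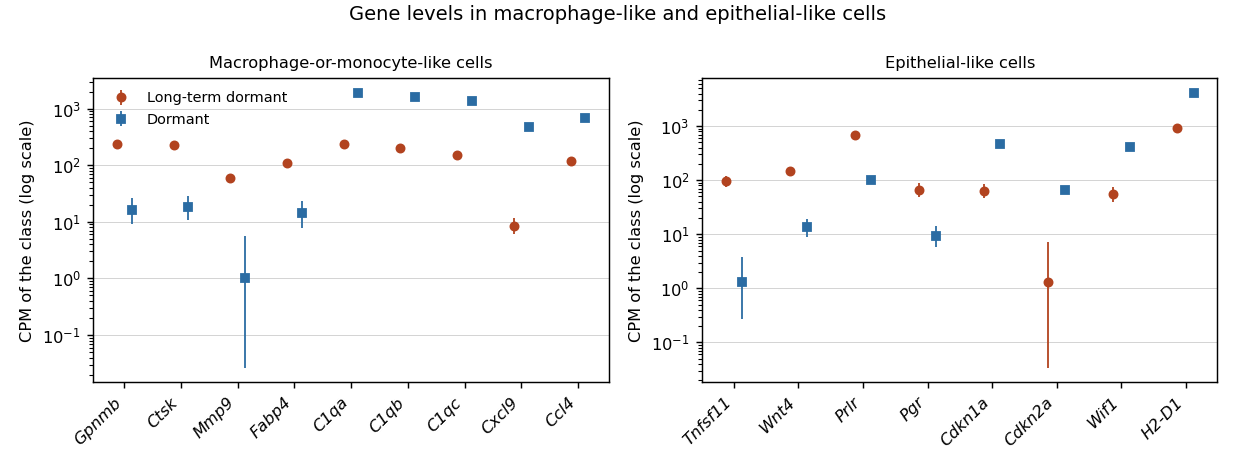
Level of named genes (vertical axis, CPM of the class, log scale) in macrophage or monocyte-like cells (left panel) and epithelial-like cells (right panel), with Long-term dormant as circles left of Dormant as squares and 95% counting intervals as lines. Gpnmb was at 242 CPM in Long-term dormant and 16.2 CPM in Dormant macrophage or monocyte-like cells, and Tnfsf11 at 96.4 CPM in Long-term dormant and 1.29 CPM in Dormant epithelial-like cells.

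The median ratio of genes of the type 2 form of dendritic cell, which presents to helper T cells, was above 0 over the sum of dendritic-like cells, near 0 inside cluster 17 and below 0 inside cluster 9. Of 8 type 2 genes, 3 of them free RNA candidates, 4 were past 2-fold higher and 1 lower, a median of 0.97, while 1 of 9 type 1 genes was past 2-fold lower and 0 higher. The mix of cells differed between the libraries: cluster 17, led by Cd209a, held 273 Long-term dormant and 20 Dormant cells, and cluster 9, led by the type 1 marker Xcr1, held 467 Long-term dormant and 120 Dormant cells. Inside cluster 17 the type 2 list had 1 of 8 past 2-fold higher and a median of -0.06, where 7.12% of 2120 genes were higher and 5.05% lower. Inside cluster 9 it had 1 of 4 higher and 2 lower and a median of -1.29, where 5.61% of 4636 genes were higher and 7.1% lower. Of 12 migratory dendritic genes 3 were past 2-fold lower and 0 higher. The costimulatory ligand Cd86 was at 65.7 CPM in Long-term dormant and 190.3 CPM in Dormant dendritic-like cells, a log2 ratio of -1.53 [-1.81 to -1.26], and of -1.51 [-1.82 to -1.20] inside cluster 9. Cd274, the checkpoint ligand PD-L1, was at 9.26 CPM in Long-term dormant and 41.9 CPM in Dormant cells, a log2 ratio of -2.17. MHC class II differed little, with 1 of 10 genes past 2-fold lower and a median of -0.02.

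Among the highest ratios of dendritic-like cells were Slamf9, a receptor of the Slam family, at 1.96 [1.43 to 2.59], Notch2, a receptor needed for some type 2 dendritic cells, and Crip1, a small zinc-binding protein. Notch2 was at 177 CPM in Long-term dormant and 45.3 CPM in Dormant cells, a log2 ratio of 1.95 [1.56 to 2.40]; inside cluster 9 it was 2.21 [1.77 to 2.72] and inside cluster 17 0.79 [-0.14 to 2.11]. Crip1 had log2 ratios of 2.05 [2.00 to 2.11] in cluster 9 and 0.62 [0.51 to 0.74] in cluster 17. Both genes were thus higher within the type 1 cluster too. Havcr2, the checkpoint receptor Tim-3, was at 14.2 CPM in Long-term dormant and 89.7 CPM in Dormant cells, a log2 ratio of -2.65 [-3.19 to -2.15]. T cell markers summed to 84.3 CPM in Long-term dormant and 1066 CPM in Dormant dendritic-like cells, with 12 of 12 detected in at least 5% of the Dormant cells, and their part in the ratio of Havcr2 was not tested.

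Plasmacytoid dendritic-like cells, known as producers of type I interferon, stood apart from the other myeloid classes, each taken whole, in their interferon-stimulated genes. Of 5 measured, 3 were past 2-fold higher in Long-term dormant tissue and 1 lower, with a median of 1.12, while 9.58% of all 2567 genes were higher and 7.71% lower. The restriction factor Bst2 was at 4300.2 CPM in Long-term dormant and 1642 CPM in Dormant cells, a log2 ratio of 1.39. Irf7, the master factor of type I interferon genes in these cells, had 1.12 [0.48 to 1.74]. The list is short, and with genes of at least 20 UMIs its median was -1.19. The share of higher genes among those past the fold was 55.4%, and 31.3% with TMM scaling. Of the factors that define the cell type, Tcf4 was at 1159.9 CPM in Long-term dormant and 174 CPM in Dormant cells, and Runx2 at 462 CPM in Long-term dormant and 46.9 CPM in Dormant cells. Cells of this class had a median of 1530 UMIs in Long-term dormant tissue and 4101 UMIs in Dormant tissue, and what part this depth plays was not tested. T cell markers summed to 256 CPM in its Long-term dormant and 984 CPM in its Dormant cells. Plasma cell markers summed to 276 CPM in Long-term dormant and 3298 CPM in Dormant cells. Fibroblast markers ran the other way, at 1543 CPM in Long-term dormant and 283.5 CPM in Dormant cells. The class's own 6 markers summed to 2497 CPM in Long-term dormant and 1642 CPM in Dormant cells. The part of RNA from other cell types in these ratios was not tested. Cxcl9 was counted 0 times in Long-term dormant and 218 times in Dormant cells of the class, at least 22.1-fold lower against a floor of 3 UMIs per library. Higher interferon-stimulated genes were not particular to this class. Inside dendritic-like cluster 17, 2 of 3 measured were past 2-fold higher and 0 lower, a median of 1.49. Inside dendritic-like cluster 9, 1 of 8 was higher and 4 lower, a median of -1.05.

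The T-like cells of the 2 libraries differed in their mix of clusters. Cluster 5, led by Cd8b1 and Lef1, held 210 of the 239 Long-term dormant and 754 of the 1230 Dormant T-like cells. Clusters 10.0, led by Ctla4, Il10 and Lag3, 10.2, led by Ccl1 and Ifng, and 14, led by Pdcd1 and Ccl5, held 3 Long-term dormant cells each, against 244, 89 and 124 Dormant cells. Over the whole class 3 of 9 checkpoint and exhaustion genes were past 2-fold lower, 4 of 10 cytotoxic genes lower, and 3 of 9 naive and circulating genes lower with 2 higher. The checkpoint receptor Lag3, a leading gene of clusters 10.0 and 14, was at 9.65 CPM in Long-term dormant and 256 CPM in Dormant T-like cells. Penk, the precursor of enkephalin peptides, was counted 0 times in Long-term dormant and 549 times in Dormant T-like cells, at least 22.2-fold lower.

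Inside cluster 5 the Long-term dormant cells had less RNA of several genes of naive T cells and more of some residency and checkpoint genes. Of 8 measured naive and circulating genes 5 were past 2-fold lower and 1 higher, a median of -1.19, while 3 of 6 tissue residency genes and 3 of 4 checkpoint genes were past 2-fold higher; of all 3542 genes measured in the cluster 13.2% were higher and 5.87% lower, with a median of 0.23. Ccr7, which routes T cells to lymph nodes, was at 27.8 CPM in Long-term dormant and 199 CPM in Dormant cells of cluster 5. The chemokine receptor Cxcr6 was at 198 CPM in Long-term dormant and 63.4 CPM in Dormant cells, a log2 ratio of 1.65 [1.16 to 2.11]. Ctla4, an inhibitory receptor, had 2.34 [1.60 to 3.06] and the integrin Itgae 1.21 [0.40 to 1.93]. The highest ratios were those of Areg, a growth factor of tissue repair, at 198 CPM in Long-term dormant and 5.67 CPM in Dormant cells, and of S100a4, at 1552 CPM in Long-term dormant and 88.1 CPM in Dormant cells. Tmem176a and Tmem176b, ion channel genes of myeloid and type 17 lymphoid cells, had 4.12 [3.28 to 5.08] and 3.62 [2.96 to 4.32].

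Areg, Gata3 and Rora are also markers of group 2 innate lymphoid cells, a lymphocyte without an antigen receptor. In cluster 5 Gata3 was at 132 CPM in Long-term dormant and 46.9 CPM in Dormant cells and Rora at 510.5 CPM in Long-term dormant and 73.2 CPM in Dormant cells, while the T cell receptor gene Trac was at 271 CPM in Long-term dormant and 203 CPM in Dormant cells. The 7 markers of that cell type summed to 832 CPM in Long-term dormant and 309 CPM in Dormant T-like cells, with none of them at 0 and 4 of 7 detected in at least 5% of the Long-term dormant cells. Their part in the ratios of cluster 5 was not tested. Fibroblast markers, as given above, were also higher in the Long-term dormant T-like cells.

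NK-like cells differed little in their killing genes, while several checkpoint and residency genes were lower in Long-term dormant tissue. Of 10 cytotoxic genes 1 was past 2-fold lower and 0 higher, with a median of 0.04. Granzyme A (Gzma, a leading gene of the class's only cluster) was at 1729 CPM in Long-term dormant and 889.6 CPM in Dormant cells, and perforin (Prf1) at 113 CPM in Long-term dormant and 75.0 CPM in Dormant cells. The member past the fold was Xcl1, which attracts type 1 dendritic cells, at 311 CPM in Long-term dormant and 712 CPM in Dormant cells, a log2 ratio of -1.19 [-1.47 to -0.93]. Of 8 checkpoint genes 4 were past 2-fold lower, and of 6 tissue residency genes 4, with medians of -1.06 and -1.08. Of 4 regulatory T genes measured, 3 were lower too. T cell markers summed to 1484 CPM in Long-term dormant and 3013 CPM in Dormant NK-like cells, with 6 of 12 detected in at least 5% of the Long-term dormant and 10 of 12 in at least 5% of the Dormant cells, and their part in these ratios was not tested. Lag3 was counted 1 time in Long-term dormant and 94 times in Dormant NK-like cells, a log2 ratio of -4.00 [-9.89 to -2.06]. Cxcr6 was at 15.0 CPM in Long-term dormant and 93.4 CPM in Dormant cells, a log2 ratio of -2.52 [-4.10 to -1.48], and Rgs1, which holds cells in tissue by damping chemokine receptors, had -2.35 [-2.69 to -2.05]. The direction of Cxcr6 in NK-like cells was thus opposite to that in T-like cluster 5. Osgin1, an oxidative stress gene, and Cited4, a coactivator binding protein, were lower as well, at -4.98 [-10.87 to -3.06] and -2.97 [-4.11 to -2.14].

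The epithelial-like cells of the 2 libraries differed in kind as well as in level. The sum of the class held luminal clusters 22 (64 Long-term dormant and 48 Dormant cells), 0 (34 Long-term dormant and 5 Dormant cells) and 1 (4 Long-term dormant and 64 Dormant cells), and basal cluster 20 (47 Long-term dormant and 147 Dormant cells). Hormone-sensing luminal genes had 7 of 10 members past 2-fold higher and 1 lower, a median of 1.82, and 2 of the 10 were free RNA candidates; with equal weight for each cluster held by both libraries the median was 0.25. In luminal cells alone 7 of 10 were past 2-fold higher and 1 lower, where 3.85% of 3969 genes were higher and 9.17% lower. Tnfsf11 (chr14:78277445-78308043, minus strand, GRCm38), the ligand RANKL that luminal cells release on progesterone, was at 96.4 CPM in Long-term dormant and 1.29 CPM in Dormant epithelial-like cells, from 74 UMIs in Long-term dormant and 3 UMIs in Dormant cells. Inside cluster 22 it was counted 69 times in Long-term dormant cells, 22 of 64 cells having a UMI, and 0 times in Dormant cells, at least 22.0-fold higher. The prolactin receptor Prlr was at 1356 CPM in Long-term dormant and 506 CPM in Dormant cells of cluster 22, a log2 ratio of 1.42 [1.18 to 1.67]. Wnt4 and the progesterone receptor Pgr had 1.96 [1.34 to 2.67] and 1.34 [0.58 to 2.21] there, while Foxa1, Cited1 and Areg, further genes of hormone-sensing cells, had 0.13, 0.18 and 0.18. So inside the cluster 4 of 9 members of the list were past 2-fold higher and 2 lower, where 4.65% of 1764 genes were higher and 11.6% lower.

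Casein RNA was counted mostly in Long-term dormant epithelium. Csn2 (beta casein, chr5:87692624-87699630, minus strand, GRCm38) had 3017 UMIs in Long-term dormant and 0 UMIs in Dormant epithelial-like cells, at least 3039-fold higher against the floor of 3 UMIs per library. Csn1s2a, another casein, had 1844 UMIs in Long-term dormant and 5 UMIs in Dormant cells, and Csn1s1 had 1607 UMIs in Long-term dormant and 45 UMIs in Dormant cells. Both Csn2 and Csn1s1 lead luminal cluster 0, which held 34 Long-term dormant and 5 Dormant cells. Of these, 32 Long-term dormant and 0 Dormant cells held Csn2, and in cluster 22 it was 6 of 64 Long-term dormant and 0 of 48 Dormant cells. Lalba, which encodes the milk protein alpha-lactalbumin, was also higher but differed less than the caseins. It had 272 of 767717 UMIs in Long-term dormant and 156 of 2320276 UMIs in Dormant epithelial-like cells. Of its Long-term dormant UMIs, 99 lay in 1 cell of cluster 22. The milk and luminal progenitor list had 5 of 12 members past 2-fold higher and 0 lower, a median of 0.74. Caseins are known from alveolar cells of pregnancy and lactation, and the cycle or pregnancy state of the mice is not given. The channel regulator Fxyd2 and the angiotensin receptor gene Agtr1a were higher too, at 4.33 [3.83 to 4.90] and 5.12 [4.16 to 6.45].

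Basal cells could be compared in cluster 20. There 7 of 10 myoepithelial contractile genes were past 2-fold higher in Long-term dormant tissue and 0 lower, a median of 1.20, against 0 of 10 over all epithelial-like cells. Of all 2460 genes measured in the cluster 6.79% were past 2-fold higher and 14.6% lower. Acta2, smooth muscle actin, was at 5487 CPM in Long-term dormant and 2694 CPM in Dormant cells, and the myosin Myh11 at 581 CPM in Long-term dormant and 173 CPM in Dormant cells; both lead the cluster. Of 5 Wnt pathway genes in the cluster 4 were past 2-fold lower. Wif1, a secreted Wnt inhibitor that is itself a Wnt target and leads the cluster, was at 294 CPM in Long-term dormant and 957 CPM in Dormant cells, a log2 ratio of -1.69 [-2.19 to -1.26]. Over all epithelial-like cells 6 of 8 Wnt genes were past 2-fold lower and 2 higher. Wnt1, the transgene of the model, had 6 UMIs in the whole Long-term dormant library (0.291 CPM) and 25 UMIs in the whole Dormant library (1.90 CPM).

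Cdkn1a and Cdkn2a, which stop the cell cycle, were lower in Long-term dormant epithelium. Of 11 cell cycle inhibitors and dormancy genes 5 were past 2-fold lower and 2 higher. Cdkn1a, the p53 target p21, was at 63.8 CPM in Long-term dormant and 467 CPM in Dormant epithelial-like cells, a log2 ratio of -2.86 [-3.31 to -2.46], and of -3.38 [-4.04 to -2.82] inside cluster 22 and -1.38 [-2.36 to -0.63] inside cluster 20. Cdkn2a, which encodes p16 and p19Arf, had 1 UMI in Long-term dormant and 151 UMIs in Dormant epithelial-like cells, a log2 ratio of -5.06 [-10.96 to -3.14]. Sfn and Phlda3, further p53 targets, had -3.08 [-4.23 to -2.25] and -2.87 [-3.50 to -2.33]. Known brakes of the cycle were thus among the lower members, while Bhlhe41, linked to dormancy in other tumours, was higher at 1.87 [1.52 to 2.22]. Of 9 FGF receptor and MAPK feedback genes 3 were past 2-fold lower, led by the ERK phosphatase Dusp6 at -1.87 [-2.33 to -1.46], and 1 was higher, the receptor Fgfr2 at 1.84 [1.32 to 2.38]. Follistatin (Fst), which binds activin, had -2.43 [-3.06 to -1.91].

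The transcript eGFP, listed among the genes of the table, was nearly absent from Long-term dormant epithelium. It was counted in 2 of 154 Long-term dormant epithelial-like cells (1.30%, 0.158% to 4.61%) and in 237 of 280 Dormant ones (84.6%, 79.9% to 88.7%). Immune cells, which are not of the tumour epithelium, had it in 0.110% of Long-term dormant and 1.93% of Dormant cells. Median depths were 4389 UMIs in Long-term dormant and 6496 UMIs in Dormant epithelial-like cells, and 2685 UMIs in Long-term dormant and 2437 UMIs in Dormant immune cells. Thinned to 1000 UMIs a cell, the shares were 1.34% of 149 Long-term dormant and 74.8% of 278 Dormant epithelial-like cells, with 5 shallower Long-term dormant and 2 shallower Dormant cells left out. Of the 169 eGFP UMIs in Long-term dormant epithelium 121 lay in 1 cell. In both cluster 22 and cluster 20 Long-term dormant cells had 0 eGFP UMIs, so the comparison of Long-term dormant with Dormant epithelium is also one of eGFP-lacking with mostly eGFP-bearing cells. The labels do not state which cells of the model carry the transcript. In Primary and Recurrent tumours it was counted in 99.7% and 98.9% of epithelial-like cells, and in 9.60% and 17.2% of immune cells. Thinned to 1000 UMIs a cell, the shares were 97.3% and 97.1% of epithelial-like and 2.15% and 4.97% of immune cells. The epithelial ratios above thus compare cells that mostly lack eGFP with cells that mostly bear it. Whether the former were tumour or host cells was not tested.

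Heat shock genes were lower in Long-term dormant tissue in all 7 classes compared. The counts past 2-fold lower were 11 of 13 in fibroblast-like, 11 of 13 in epithelial-like, 8 of 13 in macrophage or monocyte-like, 10 of 13 in dendritic-like, 10 of 11 in plasmacytoid dendritic-like, 9 of 13 in T-like and 7 of 11 in NK-like cells, with 0 past 2-fold higher in any of them. Free RNA candidates were between 0 and 4 of the members in each class. Medians lay between -1.85 in epithelial-like and -1.20 in macrophage or monocyte-like cells. Hspa1a (chr17:34969190-34972156, minus strand, GRCm38), the inducible Hsp70 chaperone, was at 98.3 CPM in Long-term dormant and 1941 CPM in Dormant fibroblast-like cells, a log2 ratio of -4.30 [-4.41 to -4.20]. In epithelial-like cells it was at 70.3 CPM in Long-term dormant and 1315 CPM in Dormant tissue, and at 445 CPM in Primary and 54.9 CPM in Recurrent tumours. In macrophage or monocyte-like cells it was at 52.4 CPM in Long-term dormant and 1015 CPM in Dormant tissue, and at 277 CPM in Primary and 87.0 CPM in Recurrent tumours. In both classes Dormant tissue therefore had the highest level of the 4 stages, and Long-term dormant tissue lay near the Recurrent tumour. Heat shock genes are known to respond to tissue dissociation, and handling of a library cannot be told apart from its stage.

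Hsph1, a chaperone that recharges Hsp70, was at 19.8 CPM in Long-term dormant and 92.8 CPM in Dormant fibroblast-like cells, a log2 ratio of -2.23 [-2.54 to -1.91]. Its promoter is shown because it holds the letters GAA, any 2 bases, TTC, any 2 bases and GAA, repeats bound by heat shock factor, in capitals (here in its reverse complement), 36 bases after the annotated start (RefSeq, GRCm38.p6, chr5:149636287-149636586, minus strand).
Hsph1 promoter: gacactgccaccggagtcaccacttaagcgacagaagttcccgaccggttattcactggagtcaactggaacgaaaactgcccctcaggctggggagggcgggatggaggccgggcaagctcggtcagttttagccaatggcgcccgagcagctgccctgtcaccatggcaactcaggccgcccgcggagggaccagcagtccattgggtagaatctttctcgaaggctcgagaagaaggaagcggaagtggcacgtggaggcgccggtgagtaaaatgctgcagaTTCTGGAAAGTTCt

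The motif was present in 3 of the 10 heat shock genes with a promoter in the table (of 13 on the list) and in 179 of 27025 promoters (0.662%), both strands searched. The 13 genes had been listed as heat shock genes, so this share too describes the list rather than the libraries. The immediate early and AP-1 genes, which are also known to respond to dissociation, had no common direction. In fibroblast-like cells 3 of 18 were past 2-fold lower and 1 higher, Fosb, at 1197 CPM in Long-term dormant and 386 CPM in Dormant cells. In macrophage or monocyte-like cells 3 of 17 were lower, among them Jun at -2.24 [-2.40 to -2.08], and in T-like cells 5 of 15 were higher and 0 lower.

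Cell cycle genes were higher in Long-term dormant tissue in 5 of the 6 classes plotted. In macrophage or monocyte-like cells 17 of 19 were past 2-fold higher, a median of 2.11, and the cells of the proliferative cluster 21 numbered 163 in Long-term dormant and 3 in Dormant tissue. Outside it, within cluster 4, 5 of 6 measured cell cycle genes were still past 2-fold higher. Mki67, a protein of dividing nuclei, was at 41.5 CPM in Long-term dormant and 10.1 CPM in Dormant macrophage or monocyte-like cells. In NK-like cells 10 of 11 were past 2-fold higher, with the DNA topoisomerase Top2a at 273 CPM in Long-term dormant and 43.8 CPM in Dormant cells, a log2 ratio of 2.64. In T-like cells 7 of 16 and in dendritic-like cells 4 of 16 were past 2-fold higher. Fibroblast-like cells had 14 of 19 past 2-fold higher, a median of 2.21 (2.01 with 2 genes that were at 0 in Dormant cells set to the floor of 3 UMIs), but 12 of the 19 were free RNA candidates, and the levels were low: Cdk1, which drives entry into mitosis, had 141 UMIs in Long-term dormant and 1 UMI in Dormant cells. Epithelial-like cells went the other way, with 0 of 6 higher and 3 lower, a median of -1.02. In plasmacytoid dendritic-like cells, not plotted, 2 members were measured, of which 0 were past 2-fold higher and 1 lower.

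Notch signalling, which the study's title names, was read from its receptors, ligands and targets. The ligand Jag1 was at 36.6 CPM in Long-term dormant and 40.4 CPM in Dormant fibroblast-like cells, a log2 ratio of -0.15 [-0.54 to 0.27], and had -0.05 [-1.03 to 0.78] in epithelial-like cells; both intervals hold 0. The ligand Jag2 and the receptors Notch1 and Notch3 had intervals that hold 0 in epithelial-like cells as well. Of 3 measured Notch targets in fibroblast-like cells 1 was past 2-fold higher and 1 lower, with a median of 0.17. In epithelial-like cells 0 of 5 were higher and 2 lower, with a median of -0.94. Of these targets Hes1, a repressor switched on by Notch, was lower in Long-term dormant tissue in both classes. It was at 304 CPM in Long-term dormant and 634 CPM in Dormant fibroblast-like cells, a log2 ratio of -1.06 [-1.16 to -0.95], and within clusters 11, 2 and 6 it had -1.21, -1.02 and -0.75. In epithelial-like cells it was at 100.3 CPM in Long-term dormant and 229 CPM in Dormant tissue, a log2 ratio of -1.18 [-1.56 to -0.85]. NK-like cells had the largest difference among classes where Hes1 was not a free RNA candidate, with 35.1 CPM in Long-term dormant and 214 CPM in Dormant cells, a log2 ratio of -2.56 [-3.49 to -1.84]. Nrarp, a feedback target of Notch, followed it there at -1.74 [-2.36 to -1.22] and in T-like cells at -2.30 [-3.72 to -1.34]. Of 3 Notch targets measured in NK-like cells 0 were past 2-fold higher and 2 lower. Inside T-like cluster 5, 1 of 3 was higher and 1 lower, with a median of 0.71. In the macrophage or monocyte-like cells the receptors Notch2 and Notch1 were higher, at 1.11 [0.62 to 1.67] and 0.96 [0.15 to 2.01]. Hes1 also answers to signals other than Notch, and these RNA levels do not separate them.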

How the data were processed

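Single-cell RNA of sorted live cells was captured with Chromium 3′ version 2 chemistry, with 10000 cells targeted per library, per the labels' protocols. Per the submitters' processing notes, Cell Ranger 3.1.0, FastQC and the mm10 build were used; settings, and whether doublets were removed, are not given in the sources used here. The authors deposited whole-number UMI counts per gene and cell for 22547 genes, not normalized. From the deposited counts, cells under 500 UMIs or 200 genes or above 20% mitochondrial UMIs were left out, which kept 6004 of 6083 Long-term dormant and 3276 of 3541 Dormant cells. Scrublet at its own threshold marked 137 Long-term dormant and 0 Dormant cells, so the highest scores at 0.8% per 1000 cells were removed instead, 288 Long-term dormant and 86 Dormant cells. The deposited totals were 22355630 UMIs in Long-term dormant and 14185689 UMIs in Dormant tissue.

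The 4 stage libraries were clustered together with scanpy 1.11.5 and leidenalg 0.10.2 (2000 variable genes, 30 components, 15 neighbours, resolution 1.0, with a second round at 0.5 for mixed clusters). Clusters were named from marker lists; the rule that turns markers into names was adjusted after the clusters had been seen. UMIs were summed per class and library and scaled to 1000000 UMIs of the class (CPM). Ratios add 0.5 UMIs to each count and have exact conditional Poisson intervals, shares have Clopper-Pearson intervals, and both cover counting error only. With 1 library per group no test was made. Genes were called measured at 50 UMIs over both libraries, in classes with at least 50 cells in each. Zero counts were bounded with a floor of 3 UMIs per library. Named genes were taken by ratio among those averaging 50 CPM or more whose interval lay wholly past 2-fold, 10 from each end in fibroblast-like and in epithelial-like cells and 5 from each end in other classes. Free RNA candidates and cluster leaders outside the lists were passed over. To these were added the Notch pathway genes and, from every list, as many as 4 members by size of ratio. Values of further genes inside clusters, and of further list members, were chosen after they had been seen. The members and the gene lists were chosen with earlier results of these data known. Genome positions are from the GENCODE annotation of GRCm38, and promoters from RefSeq. Alternatives covered the cell filter, doublets, resolution, scaling (edgeR 4.0.16 TMM factors), the UMI minimum, thinning to 1000 UMIs a cell, cluster weights and, added after the data had been seen, leaving out the 1 cell with the most UMIs of a gene. The ratio and interval code was tested on simulated counts. The IgG and Jag1 libraries were not analysed here. Some genes are not reported individually here.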

Additional observations from a re-analysis of the deposited data

How the results depend on the processing

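The order of the 2 libraries was the same for 12 class shares under 7 settings (84 of 84 comparisons). Of 120 list medians (1143 values under the alternatives) and 137 gene ratios (1150 values), 2 called values turned sign: the median of interferon-stimulated genes in plasmacytoid dendritic-like cells was -1.19 with a minimum of 20 UMIs, and Ifng in T-like cells was at 0.79 with equal cluster weights. With scaling, 10 further list medians near 0 changed sign, none of them over 0.13 in size as given, among them interferon-stimulated and MHC class I genes in T-like cells, both at 0.06 as given and at -0.23 with TMM factors. More values moved without a called sign turning. Of the 1150 gene ratio values 138 lay outside the counting interval of the ratio as given. Of the 1143 list median values 65 crossed the 2-fold line in either direction. Fibroblast-like cells were 51.7% of Long-term dormant cells with the stricter filter (1000 UMIs, 500 genes and 10% mitochondrial UMIs) and 50.3% with doublets kept. Macrophage or monocyte-like cells were 18.7% of them with the stricter filter, 17.4% with doublets kept, 20.4% at resolution 2.0 and 19.0% with both libraries clustered alone, and dendritic-like cells 16.4% with the stricter filter and 16.0% clustered alone. T-like and NK-like cells together were 6.04% of Long-term dormant cells with the stricter filter and 5.69% clustered alone, and in Dormant tissue 59.1% with the stricter filter and 53.1% with no filter. Plasma-like cells were 2.82% of Dormant cells with the stricter filter and 13.8% with no filter. Counts of genes past 2-fold (575 higher and 674 lower in fibroblast-like, 244 and 547 in epithelial-like, 705 and 360 in macrophage or monocyte-like, 341 and 330 in dendritic-like, 246 and 198 in plasmacytoid dendritic-like, 464 and 337 in T-like, 242 and 390 in NK-like cells, always higher then lower) followed the number of genes tested. With a minimum of 20 UMIs they were 1029 lower in fibroblast-like, 611 and 958 in epithelial-like, 1136 and 609 in macrophage or monocyte-like, 632 and 681 in dendritic-like, 692 and 477 in plasmacytoid dendritic-like, 1101 and 584 in T-like and 650 and 676 in NK-like cells. With a minimum of 100 UMIs they were 446 lower in fibroblast-like, 107 and 317 in epithelial-like, 404 higher in macrophage or monocyte-like, 188 and 169 in dendritic-like, 84 and 99 in plasmacytoid dendritic-like, 192 and 190 in T-like and 105 and 217 in NK-like cells. Thinned to 1000 UMIs a cell they were 382 lower, 41 and 138, 241 and 153, 122 and 90, 28 and 24, 160 and 210, and 70 and 191 for the same classes in that order. TMM factors gave 142 and 312 in plasmacytoid dendritic-like and 212 and 614 in T-like cells, equal cluster weights gave 454 higher in macrophage or monocyte-like and 208 lower in T-like cells, and leaving out the cell with the most UMIs of each gene gave 294 higher in T-like cells; the cause was not tested. TMM factors moved the median of all genes to 0.07 in fibroblast-like, 0.06 in macrophage or monocyte-like, -0.14 in plasmacytoid dendritic-like, -0.18 in T-like and -0.19 in NK-like cells. No paired analysis was possible because each group is 1 library. Shares of dissociated cells, a single library a side and low counts in T-like, NK-like and plasmacytoid dendritic-like cells of Long-term dormant tissue limit what the values can show.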
